A study of Mus musculus with 10 samples.

Results

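The 6 keratin genes described here are those of single-layered (simple) epithelia, Krt7, Krt8, Krt18, Krt19, Krt20 and Krt23. They were taken by name, and all 6 were found among the 29972 genes of the deposited mouse liver tables and among the 14765 genes kept for testing. Krt7 and Krt8 encode type II keratins, which are basic, and Krt18, Krt19, Krt20 and Krt23 encode type I keratins, which are acidic. Keratin filaments are obligate heteropolymers of a type II with a type I partner, and the proteins protect epithelial cells against mechanical and toxic stress. In adult liver, hepatocytes are known for filaments of keratin 8 with keratin 18 alone, whereas cholangiocytes, the epithelial cells that line bile ducts, add keratin 7 and keratin 19. Keratin 20 is known from intestinal, urothelial and Merkel cells, and keratin 23 is a less studied type I keratin.

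RNA was sequenced from 10 sorted liver samples in 3 groups, all on a mixed strain background (C57BL/6, FVB, CD1). HpC, hepatocyte-derived peripheral cholangiocytes, came from 4 Alb-Cre+/-;Rbpjf/f;Hnf6f/f samples aged P124, P151, P144 and P139 (postnatal days). pC, ordinary peripheral cholangiocytes, came from 3 Rbpjf/f;Hnf6f/f samples without Cre aged P151, P119 and P142, and H, hepatocytes, from 3 Alb-Cre+/-;Rbpjf/f;Hnf6f/f samples aged P134, P139 and P139. Every group therefore carried both floxed alleles, Cre was driven by the albumin promoter, which is active in hepatocytes and their embryonic precursors, and HpC differed from pC in genotype as well as in cell origin, which cannot be told apart here. Rbpj encodes the DNA-binding protein of Notch signalling and Hnf6 (Onecut1 in the annotation) a transcription factor of bile duct development. The study asked whether cholangiocytes that arise from hepatocytes resemble ordinary ones. The labels do not say that the samples of a group came from separate animals, so the p-values measure the spread between these samples, which may be partly technical.

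Levels are given as scaled TPM, which is the deposited TPM (a relative abundance corrected for transcript length) summed over the transcripts of a gene and divided by 1 factor per library (0.499 to 1.61) that removes trimmed mean differences between libraries. Depth cannot be read from TPM. Between 10232 and 14489 genes reached 1 TPM per library. Summed cholangiocyte markers (10 of 10 genes with values) stood at 1245 to 1832 scaled TPM in HpC, 5008 to 5272 in pC and 76.5 to 131 in H, and summed hepatocyte markers (10 genes) at 3053 to 5960 in HpC, 1158 to 2667 in pC and 81811 to 93974 in H. Of the 10 cholangiocyte markers 3 fell and 7 did not pass in HpC against pC by limma, where 1.99% of all genes tested were called higher and 2.55% lower. Most of the gap in their sum was Spp1 (osteopontin), named after its values were seen, at 593 to 1289 scaled TPM in HpC and 4056 to 4410 in pC. Without Spp1 the other 9 summed to 522 to 675 in HpC, 804 to 1018 in pC and 61.7 to 111 in H. Libraries HpC1 and HpC2 stood apart. Pancreatic acinar markers summed to 246269 scaled TPM in HpC1, which was 16.5% of its TPM, against 1067 in pC3, 168 in HpC3 and at most 47.7 elsewhere, and all 10 were detected there. Squamous epithelium markers summed to 40128 in HpC2 and to 3.24 to 12.9 in every other library. Rbpj stood at 4.09 to 6.24 scaled TPM in HpC, 5.51 to 6.82 in pC and 1.20 to 1.59 in H, and Onecut1 at 19.3 to 46.3 in HpC, 63.0 to 81.9 in pC and 46.0 to 109 in H. These are whole-transcript sums, which do not check the deletions. In such bulk samples, fewer cells of a type and less RNA per cell cannot be told apart.

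All 6 keratins were higher in both kinds of cholangiocyte than in hepatocytes, and between HpC and pC none of the 6 passed the test. Some ratios within the keratin mixture stood apart between HpC and pC, but no test was run on them. Krt7 and Krt20 were higher in each HpC library than in each pC library, as were 6.78% of all genes tested. Krt19 averaged higher in HpC with overlapping groups, and Krt8, Krt18 and Krt23 averaged lower in HpC, also with overlap. Levels of the members by library are plotted on a log2 scale.

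**Figure D1:**
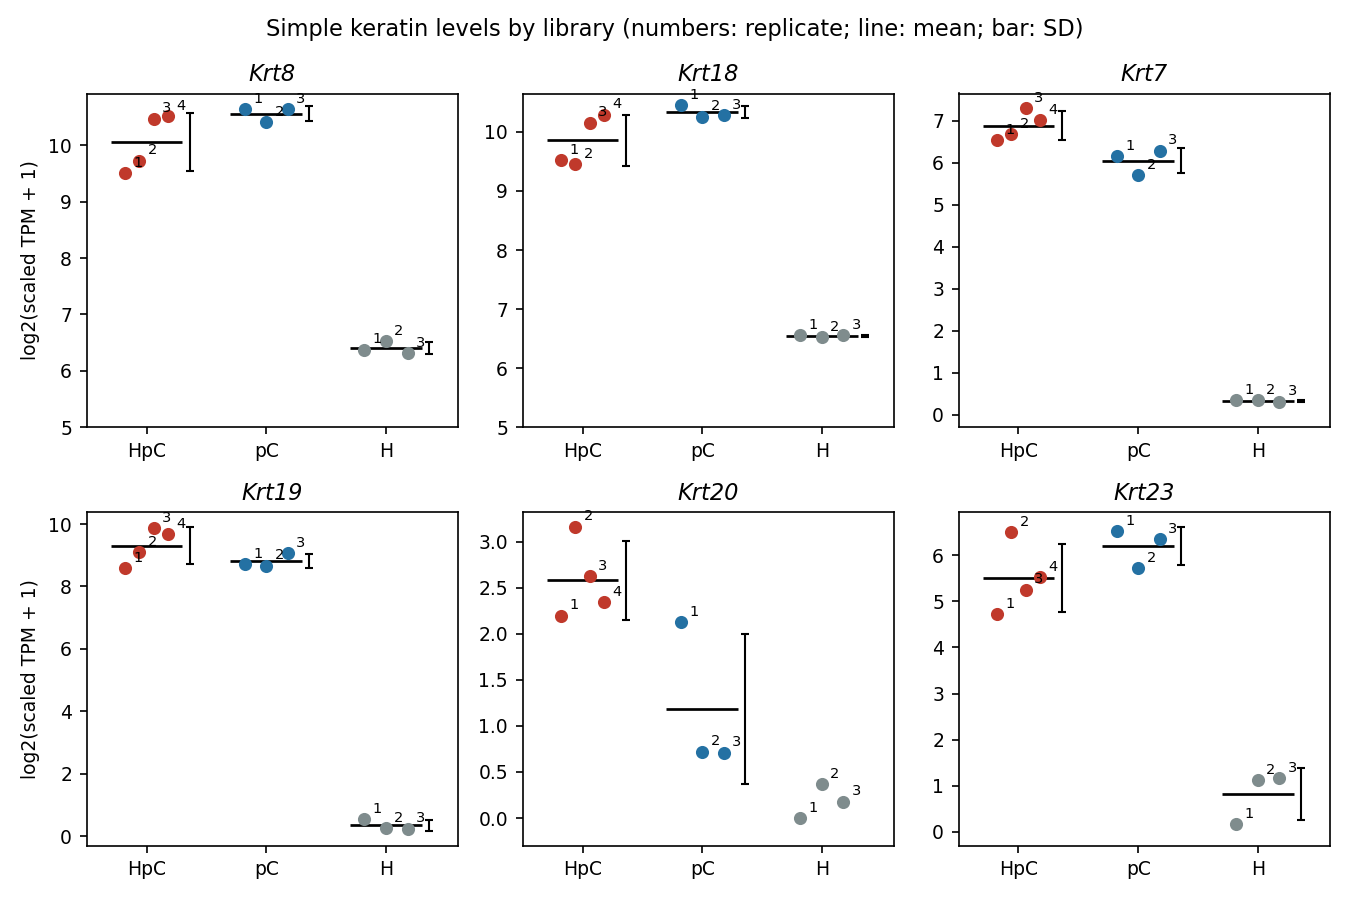
Level of each simple keratin, as log2(scaled TPM + 1) on the vertical axis, in HpC (4 libraries), pC (3) and H (3). Each point is a library with its replicate number, the line is the group mean and the bar the SD (not drawn where a library is listed at 0); the vertical axes of Krt8 and Krt18 do not start at 0. Krt7 at 92.3 to 157 scaled TPM in HpC lies above its 51.4 to 77.5 in pC, and Krt7, Krt19, Krt20 and Krt23 lie at or near 0 in H.

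Krt8 and Krt18 encode the pair that forms the basal keratin filament of every simple epithelium, hepatocytes included. Krt8 (chr15:101996698-102004482, minus strand, mm10) had 729.6, 849, 1422 and 1463 scaled TPM in HpC1 to HpC4, against 1604, 1359.5 and 1593 in pC1 to pC3 and 82.0, 90.9 and 78.6 in H1 to H3. HpC1 and HpC2 were low and HpC3 and HpC4 lay within the pC range, so the cholangiocyte groups overlapped, while every H library lay far below both. Krt18 (chr15:102028180-102032027, plus strand) had 733, 702, 1141 and 1252 scaled TPM in HpC1 to HpC4, against 1402, 1226 and 1250.2 in pC1 to pC3 and 93.3, 91.0 and 92.9 in H1 to H3. HpC1 and HpC2 were again low, HpC4 lay within the pC range and HpC3 lay below every pC library. The genes lie near each other and are transcribed in opposite directions, with Krt8 on the minus and Krt18 on the plus strand. To show the sequence next to these paired levels, the 250 bases before each RefSeq start (GRCm38.p6) are given 5′ to 3′ on the gene's strand, for Krt8 chr15:102004343-102004592 (minus) and for Krt18 chr15:102027966-102028215 (plus), with motif letters found on either strand in capitals. The motifs searched were, for ONECUT factors, ATCAAT. For RBPJ the letters were GTGGGAA. For SMAD factors they were CAGAC.
Krt8: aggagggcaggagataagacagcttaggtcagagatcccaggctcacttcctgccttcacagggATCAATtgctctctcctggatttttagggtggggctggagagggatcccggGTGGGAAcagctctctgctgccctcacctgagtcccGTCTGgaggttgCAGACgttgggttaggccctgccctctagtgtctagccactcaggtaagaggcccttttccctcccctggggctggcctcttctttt
Krt18: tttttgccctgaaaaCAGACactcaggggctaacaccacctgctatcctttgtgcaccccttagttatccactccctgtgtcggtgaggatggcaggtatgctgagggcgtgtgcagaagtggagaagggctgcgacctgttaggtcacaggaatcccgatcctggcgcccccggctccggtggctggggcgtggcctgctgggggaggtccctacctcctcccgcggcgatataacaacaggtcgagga
The Krt8 window held the ONECUT letters at bases -186 to -181 and the RBPJ letters at -135 to -129 relative to the start, and the SMAD letters at -99 to -95 (other strand) and at -87 to -83. Krt18 held the SMAD letters at -235 to -231 and those of no other motif searched. The annotated Krt8 transcript begins at position 102004482, inside the window. The RBPJ and SMAD letters of Krt8 therefore lie within that transcript, and the ONECUT letters lie upstream of it. The annotated Krt18 transcript also begins inside its window, at 102028180, downstream of the SMAD letters. Of 32851 RefSeq windows of this length, 5.42% held the RBPJ letters, 6.72% the ONECUT letters and 42.2% the SMAD letters on either strand. A match is a description of letters and not of binding.

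Across the 10 libraries, Krt18 was the gene most like Krt8 among 4403 other genes that averaged 4 or more on the log2 scale, with a root-mean-square difference of 0.20 on the log2 scale after each gene's own mean was taken away. The phospholipase gene Pld1 (0.21) and the homeobox repressor gene Tgif1 (0.22) came next. For Krt18 the order was Pld1 (0.15), Krt8 (0.20) and Tgif1 (0.21). These are descriptions over libraries in 3 separate clusters. The ratio of Krt8 to Krt18 was 0.995, 1.21, 1.25 and 1.17 in HpC1 to HpC4, against 1.14, 1.11 and 1.27 in pC1 to pC3 and 0.879, 1.0 and 0.846 in H1 to H3. The cholangiocyte groups overlapped in this ratio, and HpC1 and the H libraries had no excess of Krt8.

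Krt7, the type II keratin of ducts, lies at chr15:101411043-101430313 (plus strand). It had 92.3, 103, 157 and 129 scaled TPM in HpC1 to HpC4, against 70.3, 51.4 and 77.5 in pC1 to pC3 and 0.272, 0.263 and 0.238 in H1 to H3. The lowest HpC library was above the highest pC library. Krt20 (chr11:99428403-99438150, minus strand) was the scarcest member, with 3.58, 7.97, 5.17 and 4.07 scaled TPM in HpC1 to HpC4, against 3.36, 0.648 and 0.635 in pC1 to pC3. It was listed at 0 in H1 and stood at 0.289 in H2 and 0.132 in H3. The HpC and pC groups were apart for Krt20 by a narrow margin, HpC1 against pC1, and the highest value was in the squamous-marked library HpC2. For these members, whose groups did not overlap, the 250 bases before the RefSeq start are given in the same way, for Krt7 chr15:101412153-101412402 (plus) and for Krt20 chr11:99438154-99438403 (minus), with the SMAD letters and those of a TEAD motif, GGAATG, and of the TATA box, TATAAA, in capitals.
Krt7: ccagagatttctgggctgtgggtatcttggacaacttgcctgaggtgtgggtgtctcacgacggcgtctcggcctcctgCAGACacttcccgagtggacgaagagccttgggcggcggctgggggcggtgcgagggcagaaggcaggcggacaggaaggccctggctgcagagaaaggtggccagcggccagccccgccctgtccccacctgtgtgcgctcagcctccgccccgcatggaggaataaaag
Krt20: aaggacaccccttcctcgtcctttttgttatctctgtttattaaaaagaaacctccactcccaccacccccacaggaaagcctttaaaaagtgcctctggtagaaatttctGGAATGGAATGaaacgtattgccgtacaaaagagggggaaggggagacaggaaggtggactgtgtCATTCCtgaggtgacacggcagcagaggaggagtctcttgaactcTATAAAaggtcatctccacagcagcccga
Krt7 held the SMAD letters at -171 to -167. Krt20 held the TEAD letters at -139 to -134 and at -134 to -129, which overlap by 1 base, and on the other strand at -74 to -69, and it held the TATA letters at -29 to -24. Of the 32851 windows, 12.6% held the TEAD letters and 12.4% the TATA letters. Neither window held the RBPJ or ONECUT letters.

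Krt19, the type I keratin of ducts (chr11:100140810-100148665, minus strand), had 382, 545, 941 and 822 scaled TPM in HpC1 to HpC4, against 422, 407 and 539 in pC1 to pC3 and 0.471, 0.200 and 0.183 in H1 to H3. HpC2, HpC3 and HpC4 exceeded every pC library, HpC2 by a narrow margin over pC3, and HpC1 lay below all of them. Krt23 (chr11:99477974-99493137, minus strand), a type I keratin, had 25.5, 89.2, 37.2 and 45.3 scaled TPM in HpC1 to HpC4, against 90.5, 52.0 and 80.7 in pC1 to pC3 and 0.120, 1.19 and 1.25 in H1 to H3. HpC2 reached the pC level, and the other HpC libraries lay below every pC library. Without HpC2, Krt23 averaged 36.0 ± 9.94 in HpC (SD, n = 3) and 74.4 ± 20.0 in pC (SD, n = 3), and the groups did not overlap. The share of all genes with such a gap was not computed without HpC2, and Krt23 did not pass there (limma adjusted p = 0.144).

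Within the cholangiocyte libraries the order of levels, per transcript length, was nearly fixed. Krt8 and Krt18 were highest, Krt19 came next, Krt7 and Krt23 followed and Krt20 was lowest. Krt8 and Krt18 overlapped in both groups, and Krt19 overlapped Krt18 in HpC but not in pC. Krt7 exceeded Krt23 in 4 of 4 HpC libraries, whereas Krt23 exceeded Krt7 in 3 of 3 pC libraries, by 52.0 against 51.4 in pC2. In HpC2 this order turned when transcripts were weighted by length, with 38.7 for Krt7 and 89.2 for Krt23. In H only Krt8 and Krt18 reached 1 deposited TPM, and among the remaining 4 members the order differed from library to library. Ranked among the genes tested, Krt8 was 105th, 72nd, 29th and 26th in HpC1 to HpC4, against 23rd, 27th and 21st in pC1 to pC3 and 1402nd, 1301st and 1447th in H1 to H3.

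The comparison of HpC with pC asked whether the hepatocyte-derived cells express duct keratins as ordinary cholangiocytes do. By limma on log2(scaled TPM + 1) with Benjamini-Hochberg adjustment over all 14765 genes, 0 of 6 members passed at 5%, and 2 of 6 had an unadjusted p under 0.05. In this comparison 4.54% of all genes tested passed, 1.99% as higher and 2.55% as lower. Higher genes made up 43.8% of the 671 calls, and 26.1% of the 552 calls on TPM as deposited, without rescaling. Krt7 averaged 120.2 ± 29.0 scaled TPM in HpC and 66.4 ± 13.5 in pC (SD, n = 4 and 3), a log2 difference of 0.84 ± 0.21 (SE; limma adjusted p = 0.0509). Krt20 differed by 1.40 ± 0.36 on that scale (limma adjusted p = 0.0606), which at such low levels is held down by the pseudocount of 1. These are the members whose HpC and pC groups did not overlap, a pattern that 6.78% of all genes tested showed as higher and 9.72% as lower.

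For the other members the spread within HpC was large. Krt19 averaged 673 ± 255 scaled TPM in HpC and 456 ± 72.6 in pC, a log2 difference of 0.49 ± 0.29 (SE; limma adjusted p = 0.422). Krt8 averaged 1116 ± 381 in HpC and 1519 ± 138 in pC, a log2 difference of -0.51 ± 0.25 (limma adjusted p = 0.340). Krt18 averaged 957 ± 280.4 in HpC and 1293 ± 95.2 in pC, a log2 difference of -0.48 ± 0.22 (limma adjusted p = 0.294). Both members of the basal pair thus varied by 34.1% and 29.3% of their mean (coefficient of variation) among HpC libraries, against 9.09% and 7.37% among pC libraries. Krt23 averaged 49.3 ± 27.8 in HpC and 74.4 ± 20.0 in pC, a log2 difference of -0.70 ± 0.41 (limma adjusted p = 0.418). The median log2 difference was 0.00 over the 6 members and -0.01 over all genes tested.

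Leaving out HpC2, the library with squamous RNA, brought no member past the threshold. By limma 0 of 6 passed, 3 of 6 had an unadjusted p under 0.05, and 4.63% of 14609 genes passed. The log2 difference of Krt7 was then 0.90 ± 0.22 (limma adjusted p = 0.0548) and that of Krt23 -1.03 ± 0.33 (limma adjusted p = 0.144), while Krt20 differed by 1.20 ± 0.36 (limma adjusted p = 0.111). Krt19 differed by 0.56 ± 0.31 (limma adjusted p = 0.422), Krt8 by -0.40 ± 0.26 (limma adjusted p = 0.50) and Krt18 by -0.35 ± 0.20 (limma adjusted p = 0.444). Each member kept its side of 0. With HpC1, the acinar-marked library, left out alone, Krt7 passed at 0.95 (limma adjusted p = 0.0321), and with pC1 left out alone Krt20 passed at 1.87 (limma adjusted p = 0.0127). Without HpC1 and HpC2 together Krt7 rose by 1.11 ± 0.19 (limma adjusted p = 0.0225) and Krt19 by 0.96 ± 0.18 (limma adjusted p = 0.0275), where 2% of all genes passed as higher. The differences of Krt8 and Krt18 then shrank to -0.07 ± 0.14 (limma adjusted p = 0.872) and -0.11 ± 0.13 (limma adjusted p = 0.749).

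Some markers of mesothelial cells, which express simple keratins themselves, were also higher in HpC. The 7 listed markers summed to 34.5 to 55.4 scaled TPM in HpC, 24.4 to 32.0 in pC and 0.643 to 1.40 in H. By limma 3 of the 7 rose (Msln, Upk1b and Wt1), 1 fell (Gpm6a) and 3 did not pass in HpC against pC, where 1.99% of all genes were called higher and 2.55% lower. Msln (mesothelin) stood at 14.7 to 32.8 scaled TPM in HpC and 3.44 to 11.6 in pC, and Gpm6a at 4.26 to 8.18 in HpC and 11.1 to 20.5 in pC. Their part in the Krt7 difference was not tested. For Krt20, the 8 listed intestinal markers summed to 15.0 to 22.8 scaled TPM in HpC, 17.5 to 28.6 in pC and 66.8 to 91.3 in H, in which Cdx1 and Cdx2 were at or near 0 in all 10 libraries and Sis was listed at 0 in all of them. Fabp2 stood at 49.1 to 73.5 in H. Vil1 stood at 8.17 to 15.0 in HpC, 7.17 to 10.4 in pC and 0 in H. Muc2 stood at 0 to 1.14 in HpC and 0.0226 to 0.114 in pC. Lgals4 stood at 5.01 to 9.52 in HpC and 6.68 to 20.8 in pC, and Lgr5 at 0.162 to 0.425 and 0.305 to 0.597. Their part in the Krt20 difference was not tested. The 5 urothelial markers summed to at most 0.739 scaled TPM outside HpC2 and to 852 in HpC2, nearly all of it Krt5 and Trp63, which the squamous list holds too. Upk2 and Upk3a were at 0 outside HpC2 and under 0.1 in it.

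The composition of the keratin mixture is independent of the scale factor of a library, since numerator and denominator share it. Krt7 made up 11.2%, 10.8%, 9.95% and 8.08% of Krt7 plus Krt8 in HpC1 to HpC4, against 4.20%, 3.64% and 4.64% in pC1 to pC3 and 0.331%, 0.289% and 0.302% in H1 to H3. The HpC libraries, HpC1 and HpC2 among them, all lay above the pC libraries. Krt19 made up 34.3%, 43.7%, 45.2% and 39.6% of Krt18 plus Krt19 in HpC1 to HpC4, against 23.1%, 24.9% and 30.1% in pC1 to pC3 and at most 0.502% in H. Here too the groups did not overlap. The ratio of summed type II to summed type I keratins was 0.718, 0.708, 0.743 and 0.749 in HpC1 to HpC4, against 0.873, 0.837 and 0.893 in pC1 to pC3 and 0.876, 0.984 and 0.834 in H1 to H3. HpC lay below both other groups. No test was run on these ratios, because their members were chosen with results of these data known.

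**Figure D2:**
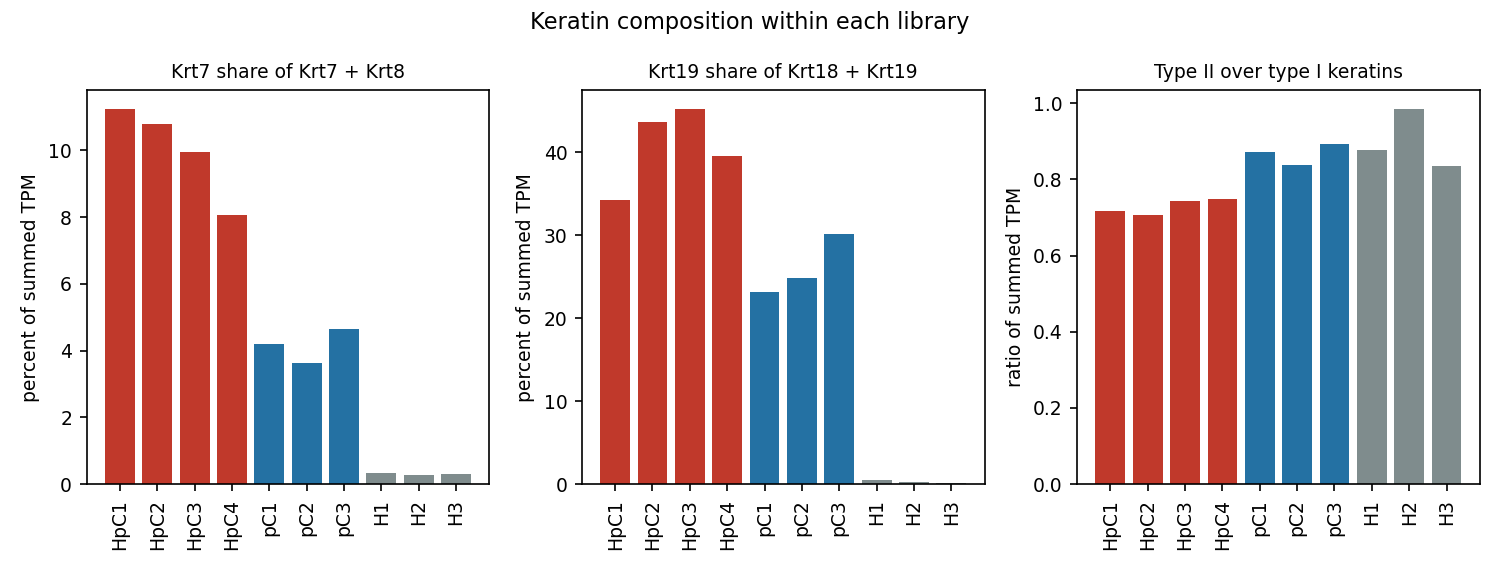
Keratin composition in each library, with HpC in red, pC in blue and H in grey; the vertical axes give Krt7 as a percentage of Krt7 plus Krt8, Krt19 as a percentage of Krt18 plus Krt19, and the ratio of summed type II to summed type I TPM. Krt7 takes 8.08% to 11.2% in HpC, 3.64% to 4.64% in pC and at most 0.331% in H.

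Without HpC2 the Krt7 share averaged 9.75% ± 1.59 in HpC (SD, n = 3) and 4.16% ± 0.498 in pC (SD, n = 3), and the Krt19 share 39.7% ± 5.47 in HpC and 26.1% ± 3.64 in pC. When transcripts were weighted by length, an alternative added after the data were seen, the Krt7 share averaged 4.17% ± 0.659 in HpC (n = 4) and 1.64% ± 0.238 in pC, with groups still apart. The type II to type I ratio by length weighting was 0.787 to 0.871 in HpC, 0.915 to 0.997 in pC and 0.834 to 0.985 in H, so that HpC then overlapped H. The 6 members together summed to 1966, 2296, 3704 and 3715 scaled TPM in HpC1 to HpC4, against 3592, 3096 and 3542 in pC1 to pC3 and 176, 184 and 173 in H1 to H3. The total overlapped between HpC and pC.

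Krt7 and Krt19 are the members with more than 1 annotated transcript in the tables, with 5 and 3. Krt7-204, a coding model of 642 bases that begins at chr15 position 101411103, upstream of the printed window, held 54.6% to 64.7% of Krt7 TPM in HpC and 53.9% to 59.8% in pC. The 4094-base coding Krt7-201, whose start adjoins the window, held 13.3% to 16.4% in HpC and 12.3% to 13.5% in pC. For Krt19 the processed transcript Krt19-203 (823 bases) held 50.9% to 54.0% in HpC and 53.3% to 56.0% in pC, and the coding Krt19-201 (1576 bases) 16.9% to 18.2% in HpC and 16.0% to 18.1% in pC. The division among transcripts was thus alike in range between HpC and pC. Krt7-204 held the largest part of the Krt7 difference, averaging 72.9 scaled TPM in HpC and 38.1 in pC, against 120.2 and 66.4 for the gene. All 5 Krt7 transcripts averaged higher in HpC, by 1.31-fold (Krt7-205) to 2.06-fold (Krt7-201). Short transcripts weigh heavily in such a sum of TPM, and Krt7 passed between HpC and pC when transcripts were weighted by length (log2 difference 0.84, limma adjusted p = 0.0413).

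**Figure D3:**
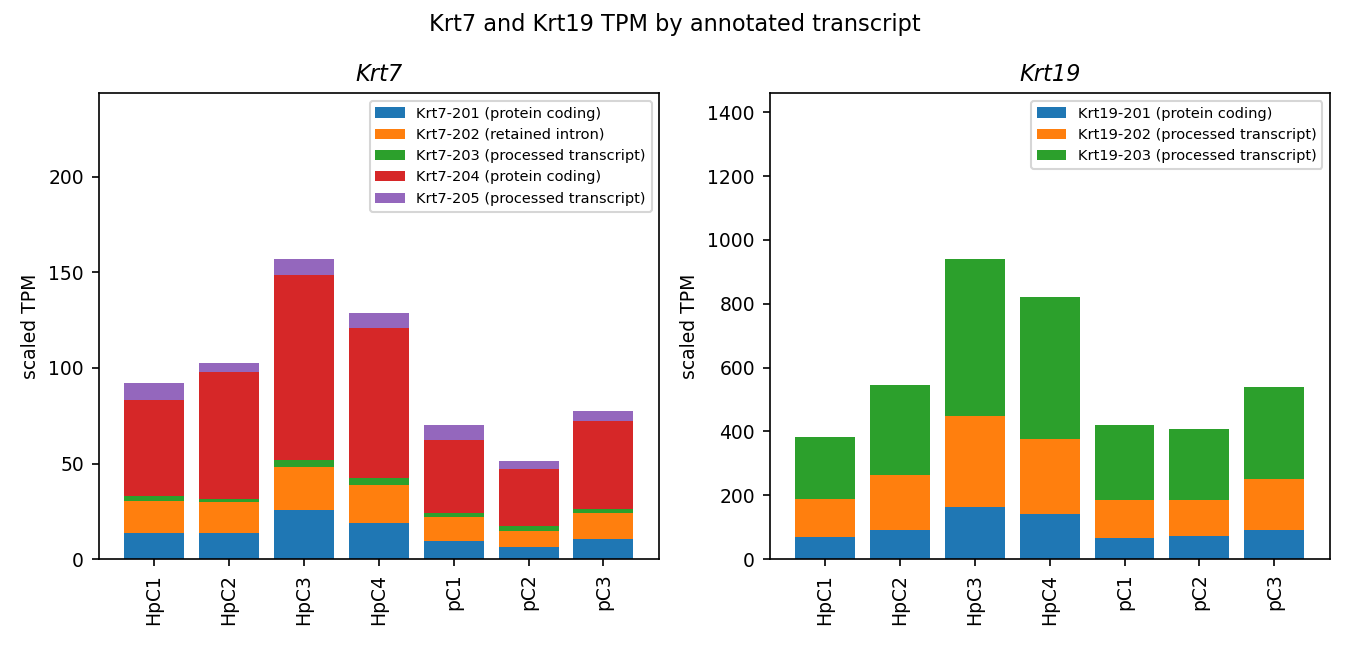
Scaled TPM of Krt7 (left) and Krt19 (right) in each HpC and pC library, stacked by annotated transcript. Krt7-204 holds 54.6% to 64.7% of Krt7 TPM in HpC and 53.9% to 59.8% in pC, and Krt19-203 holds 50.9% to 54.0% of Krt19 TPM in HpC and 53.3% to 56.0% in pC.

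Some members share sequence with other genes. Of the 31-base words in Krt8 transcripts, 36.0% also occur in another annotated gene, 621 of 1928 in the pseudogene Krt8-ps. For Krt18 the share was 11.4% (131 of 1407 words in the pseudogene Gm5200, like Krt8-ps not analysed here) and for Krt7 3.03%. Only 8 of 1823 words of Krt19 were shared, 7 of them with Krt17, and Krt20 and Krt23 shared none. Reads from these copies could have been added to Krt8 and Krt18, so the levels of both carry that uncertainty. No source used here gives the strand setting of the quantification, so reads from the antisense gene Gm671 over the start of Krt7 or the noncoding gene Gm36026 over Krt8 cannot be told apart from theirs.

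The comparison of HpC with H asked how far the keratins differ between the hepatocyte-derived cells and hepatocytes of the same genotype. By limma, 6 of 6 members rose, where 30.7% of all genes tested were called higher and 29.2% lower (4528 and 4314 genes, or 7553 and 1519 on TPM as deposited, which moved the median of all genes to 0.87 on the log2 scale). The log2 rise of Krt8 was 3.66 ± 0.25 (SE, with a limma adjusted p = 1.04e-06), with 1116 ± 381 scaled TPM in HpC and 83.8 ± 6.38 in H (SD, n = 4 and 3), or 13.3-fold. Krt18 rose by 3.31 ± 0.22 (limma adjusted p = 7.88e-07), with 957 ± 280.4 in HpC and 92.4 ± 1.25 in H, or 10.4-fold. These genes were kept for testing through hepatocytes as well as cholangiocytes. Krt7, Krt19, Krt20 and Krt23 reached 1 deposited TPM in 0 of 3 H libraries and were kept only through the cholangiocytes. For them the filter itself favoured a difference from H. Their log2 differences were 6.56 for Krt7, 8.96 for Krt19, 2.40 for Krt20 and 4.68 for Krt23. Every member's HpC libraries lay above its H libraries, as those of 31.6% of all genes did, and its pC libraries above its H libraries, as those of 37.1% did.

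Between pC and H, where pC lacked Cre and H carried it, 6 of 6 members also rose by limma, where 31.1% of all genes tested were called higher and 28.6% lower (4590 and 4216 genes, or 9361 and 1255 on TPM as deposited, with a median of 1.20). This comparison shares the H libraries with the preceding one. Krt8 rose by 4.16 ± 0.27 (limma adjusted p = 7.33e-07), with 1519 ± 138 scaled TPM in pC and 83.8 ± 6.38 in H (SD, n = 3 each), or 18.1-fold. Krt18 rose by 3.79 ± 0.24 (limma adjusted p = 5.36e-07), with 1293 ± 95.2 in pC and 92.4 ± 1.25 in H, or 14.0-fold. Krt7 differed by 5.72, Krt19 by 8.47 and Krt23 by 5.38 on the log2 scale. Krt20 rose by 1.0 ± 0.38 (limma adjusted p = 0.0448) on the value of pC1, and without pC1 it no longer passed (0.53, limma adjusted p = 0.148). The HpC libraries without HpC2 gave the same count of 6 of 6 against H, where 31% of genes were called higher.

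Genes most like the duct keratins across the 10 libraries were, for Krt7, the surface glycoprotein gene Plet1 (root-mean-square difference 0.18), the chloride channel gene Ano1 (0.21) and the laminin gene Lama5 (0.23). For Krt19 they were Ccn2 (0.49), a matricellular protein gene, Plaur (0.81), the urokinase receptor gene, and the unnamed gene Gm12854 (0.88). For Krt23 they were Tagln2 (0.44), Fxyd3 (0.46) and Meis2 (0.47), and without HpC2 the duct regulator Sox9 (0.31) came first. No gene came as near to Krt19 as those named came to Krt7, Krt8 and Krt18. This measure is not scaled by a gene's range. Of the members, Krt19 differed most from H, by 8.96 on the log2 scale in HpC and 8.47 in pC. Krt20 was under the level set for this measure.

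Keratins of stratified epithelia were scarce outside HpC2. Of 22 listed, 21 had values and 5 were tested. Between HpC and pC 0 of 5 passed by limma, 0 of them at an unadjusted p under 0.05, with a median log2 difference of 0.52 over the list (0.07 over the 4 tested without HpC2) and -0.01 over all genes. Of all genes tested, 4.54% passed. Krt17 and Krt80 reached 1 deposited TPM in 0 of 3 H libraries and were kept only through the cholangiocytes, so the filter itself favoured a difference from H. Krt17, a keratin of basal and stressed epithelia, had 14.9, 81.5, 15.7 and 8.88 scaled TPM in HpC1 to HpC4, against 24.7, 13.0 and 22.0 in pC1 to pC3 and at most 0.121 in H. Krt80 had 6.97, 38.3, 13.2 and 19.9 in HpC1 to HpC4, against 15.8, 9.27 and 27.4 in pC1 to pC3 and at most 0.0792 in H. HpC2 was the highest HpC library for both. In HpC2 8 keratins (Krt4, Krt5, Krt6a, Krt6b, Krt13, Krt14, Krt15 and Krt16) exceeded 10 times their level in each other library. Krt13, the keratin of oral and oesophageal lining, stood at 31990.5 scaled TPM there and at 0.265 to 11.7 elsewhere, and its type II partner Krt4 at 5045, with 2.13 as the next value. Among the simple keratins HpC2 was the highest HpC library for Krt20 and Krt23 alone.

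**Figure D4:**
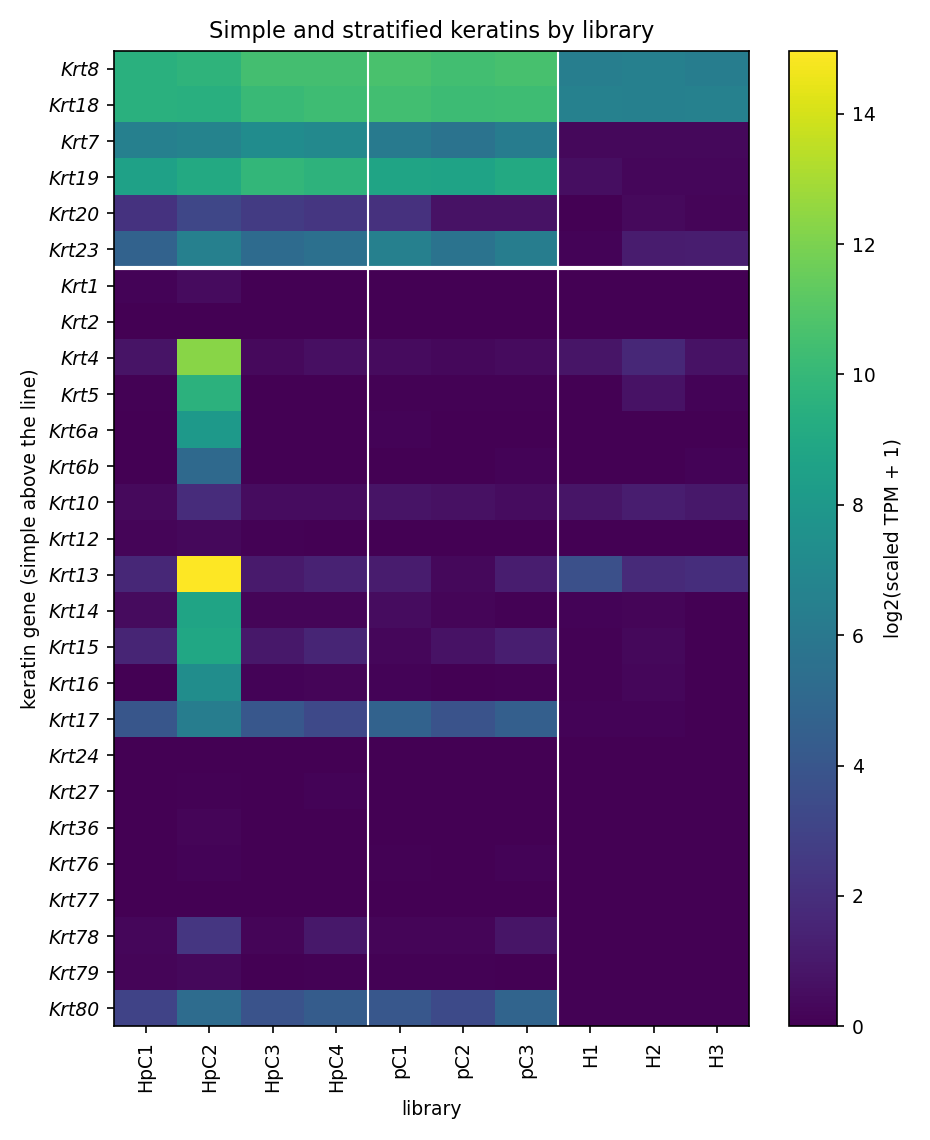
Heat map of log2(scaled TPM + 1), given by colour, for the 6 simple keratins above the line and 21 keratins of stratified and hair-type epithelia below it (rows) in the 10 libraries (columns; HpC, pC and H are parted by lines). In HpC2 Krt4, Krt5, Krt6a, Krt6b and Krt13 to Krt16 exceed 10 times their level in each other library, with Krt13 at 31990.5 scaled TPM there and at most 11.7 elsewhere, whereas Krt8 and Krt18 are present in every library.

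The proteins that tie keratins to junctions formed the next list, of which 15 of 20 genes were tested. Between HpC and pC 2 rose, 0 fell and 13 did not pass by limma, with a median log2 difference of 0.34 over the list (0.15 without HpC2) and -0.01 over all genes. Of all genes tested, 1.99% were called higher and 2.55% lower. Dst, which encodes dystonin, a linker of keratin to hemidesmosomes, had 33.7, 77.3, 43.2 and 37.7 scaled TPM in HpC1 to HpC4, against 19.0, 16.7 and 14.1 in pC1 to pC3 (log2 difference 1.41 ± 0.26, limma adjusted p = 0.0148). The Dst call was lost on TPM as deposited (1.01, limma adjusted p = 0.186), without pC2 (limma adjusted p = 0.0696) and without pC3 (limma adjusted p = 0.0599). The desmosomal cadherin gene Dsg1a had 5.80, 24.1, 6.96 and 11.6 in HpC1 to HpC4, against 1.13, 0.666 and 1.49 in pC1 to pC3 (log2 difference 2.47 ± 0.39, limma adjusted p = 0.00632). Dsg1a has near-identical copies beside it, Dsg1b and Dsg1c, among which reads could have been split. Both passed without HpC2 (limma adjusted p = 0.00613 for Dst at 1.16 and 0.00279 for Dsg1a at 2.09), and Dsc2, a desmosomal cadherin gene, then also rose by 1.10 ± 0.20 (limma adjusted p = 0.0161). For Dst and Dsc2, pC was the low group. Dst stood at 29.4 to 39.0 scaled TPM in H, and Dsc2 at 21.4 to 31.3 in H and 9.67 to 14.5 in pC. Without HpC2 neither passed in HpC against H (Dst 0.18, limma adjusted p = 0.369, and Dsc2 -0.03, limma adjusted p = 0.901).

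Some desmosome genes peaked in HpC2 and others were lowest there. Dsp (desmoplakin) had 177, 1025, 261 and 286 scaled TPM in HpC1 to HpC4, against 287, 252 and 231 in pC1 to pC3. The desmosomal cadherin gene Dsg2 had 456, 321, 543 and 498 in HpC1 to HpC4, against 477, 373 and 477 in pC1 to pC3, and the plakophilin gene Pkp2 had 17.2, 11.9, 22.9 and 26.3 in HpC1 to HpC4, against 14.2, 16.5 and 19.4 in pC1 to pC3. HpC2 was thus the highest of these libraries for Dsp and the lowest for Dsg2 and Pkp2, and Pkp1, Dsg3, Dsc1 and Dsc3 exceeded in HpC2 10 times their level in each other library. Against H, 11 of 15 genes of this list rose and 1 fell in HpC, and 9 rose and 1 fell in pC, by limma, where 30.7% of all genes were called higher and 29.2% lower for HpC and 31.1% and 28.6% for pC. Among them Itgb4, Dsg1a and Evpl reached 1 deposited TPM in 0 of 3 H libraries and were kept only through the cholangiocytes. For these genes the filter itself favoured a difference from H, although Dsg1a did not pass in pC against H (limma adjusted p = 0.0615). Itgb4, the integrin subunit of hemidesmosomes, had 45.4 to 94.4 scaled TPM in HpC, 53.2 to 57.3 in pC and 0.0695 to 0.10 in H. The plakophilin gene Pkp4 fell in HpC against H by 0.79 ± 0.17 (limma adjusted p = 0.00232), and Dst fell in pC against H by 0.97 ± 0.28 (limma adjusted p = 0.0127); both turned to the other direction on TPM as deposited.

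Among other intermediate filament genes, of which 7 of 15 were tested, 3 rose, 0 fell and 4 did not pass between HpC and pC by limma (median log2 difference 0.61 over the list, and 0.34 without HpC2). The shares over all genes tested were 1.99% higher and 2.55% lower. Vim, the filament of mesenchymal cells, had 137, 64.8, 93.0 and 76.5 scaled TPM in HpC1 to HpC4, against 36.5, 27.8 and 31.2 in pC1 to pC3 and 0.355 to 1.53 in H (HpC over pC 1.47 ± 0.29, limma adjusted p = 0.0192). The Vim call was lost on TPM as deposited (1.05, limma adjusted p = 0.0810), with a pseudocount of 0.1 (limma adjusted p = 0.107), without HpC3 (limma adjusted p = 0.0542) and without each pC library (limma adjusted p up to 0.0981). Nes (nestin) had 6.82, 2.26, 5.18 and 3.54 in HpC1 to HpC4, against 0.398, 0.368 and 0.839 in pC1 to pC3 (1.77 ± 0.29, limma adjusted p = 0.00763). Synm (synemin) rose by 0.96 ± 0.21 (limma adjusted p = 0.0335), and this call was lost in 14 of 22 alternatives, among them TPM as deposited (0.89, limma adjusted p = 0.157), the replicate block (limma adjusted p = 0.103), HpC2 left out (limma adjusted p = 0.0614), and any 1 pC or H library left out (limma adjusted p up to 0.163). Nes and Synm reached 1 deposited TPM in 4 of 4 HpC libraries and 1 of 3 pC libraries, so that they were kept for testing mainly through HpC. Against H, Vim, Lmnb1, Nes, Lmna, Synm and Des rose in HpC and Vim, Lmnb1 and Lmna in pC, by limma, where 30.7% and 31.1% of all genes were called higher. Of these Vim, Nes, Synm and Des reached 1 deposited TPM in 0 of 3 H libraries and were kept only through the cholangiocytes. Stellate and fibroblast markers, from cells that express vimentin, desmin and nestin, summed to 25.5 to 95.8 scaled TPM in HpC, 21.1 to 30.5 in pC and 2.44 to 3.30 in H, and their part in these differences was not tested. Des is on both lists.

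Of 15 genes for keratin-binding, keratin-cleaving and stress proteins, all tested, 1 rose, 0 fell and 14 did not pass between HpC and pC by limma (median log2 difference 0.13, and 0.07 without HpC2). In this comparison 1.99% of all genes tested were called higher and 2.55% lower. Hspb1, the small heat shock protein that associates with keratin filaments, had 101, 364, 100.5 and 112 scaled TPM in HpC1 to HpC4, against 40.8, 28.1 and 32.9 in pC1 to pC3 and 1.11 to 2.38 in H (HpC over pC 2.06 ± 0.42, limma adjusted p = 0.0225). HpC2 was far above the others, and without it the difference was 1.61 ± 0.21 (limma adjusted p = 0.00380). The Hspb1 call was lost when any 1 pC library was left out (limma adjusted p up to 0.107), on TPM as deposited (1.64, limma adjusted p = 0.0783), with the replicate block (limma adjusted p = 0.0591), with only the groups compared (limma adjusted p = 0.0607) and with no filter on low values (limma adjusted p = 0.0531). Against H, 6 of 15 rose and 4 fell in HpC, and 5 rose and 3 fell in pC, by limma. Among all genes 30.7% were called higher and 29.2% lower for HpC, and 31.1% and 28.6% for pC, and the counts of the list lie near those shares. Those that fell were Mapk14, Casp6, Prkce and Stub1 in HpC and all but Prkce in pC, and on TPM as deposited all 4 in HpC and all 3 in pC turned to the other direction.

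**Figure D5:**
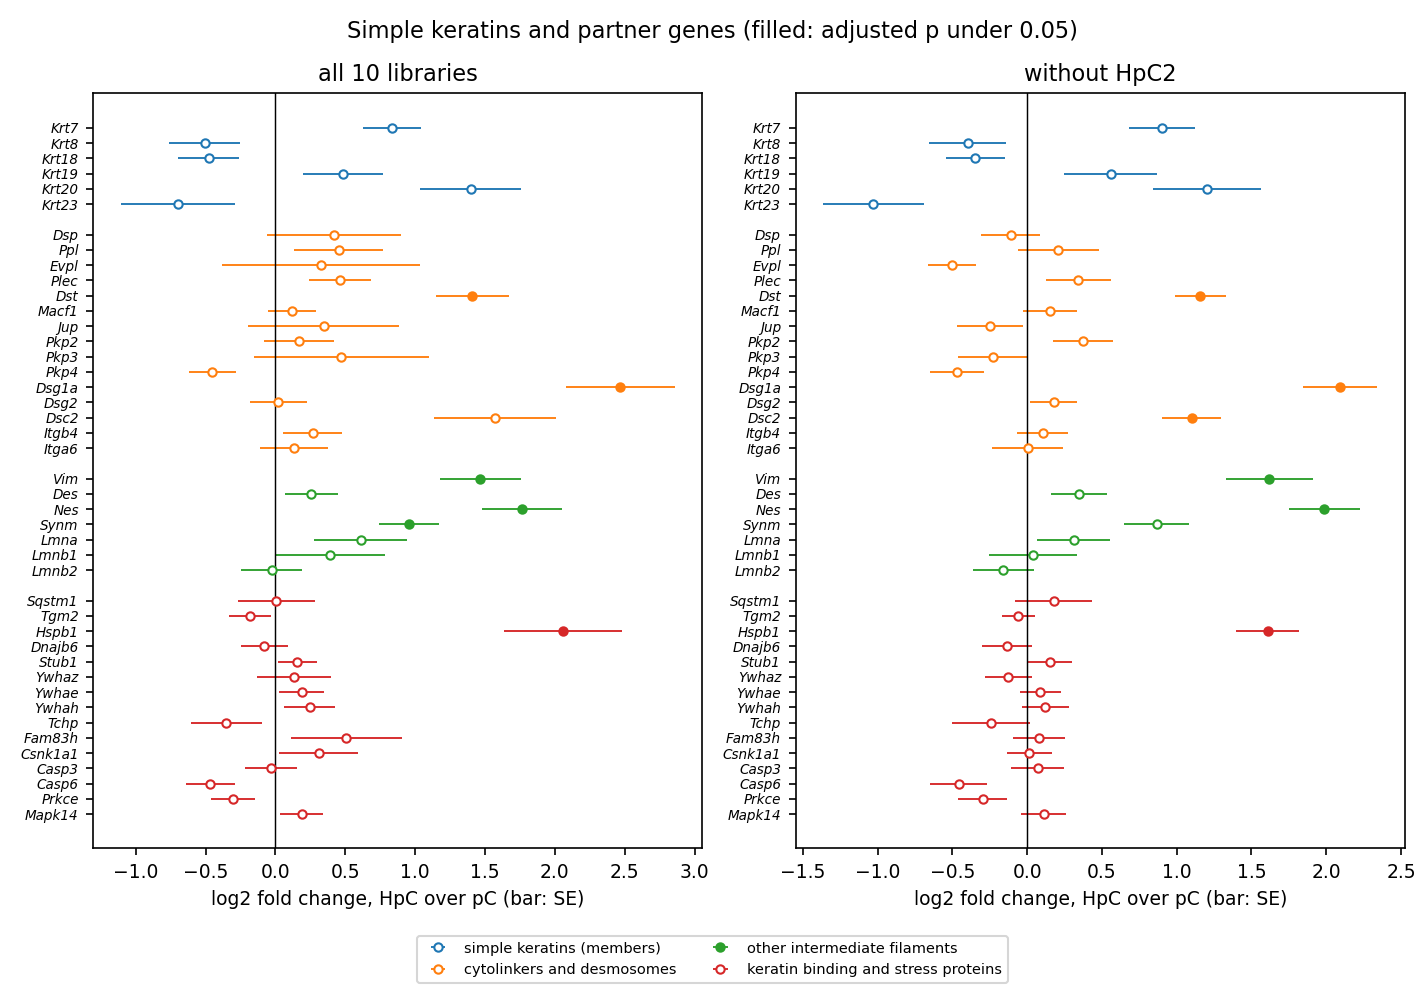
Log2 fold change of HpC over pC with its SE (horizontal axis) for the 6 simple keratins and the tested genes of 3 partner lists (vertical axis, coloured by list), from all 10 libraries on the left and without HpC2 on the right. Filled points passed at a limma adjusted p under 0.05; no simple keratin did, with Krt7 at 0.84 and Krt8 at -0.51 in the left panel.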

How the data were processed

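RNA from cells sorted by FACS was made into libraries with a low-input kit and sequenced as single-end reads of 50 bases, per the labels. The authors deposited 1 table of TPM for each of 10 libraries. The tools named by the authors were kallisto and DESeq, and the build mm10, per the submitters' processing notes, and no source used here gives their versions or options. All tables have the same TPM total over 85276 transcripts, so depth is unknown and no counting interval can be given. TPM were summed per gene through GENCODE M21 (81927 transcripts matched, 3349 not, holding 4.22% to 9.06% of TPM). Columns of other samples numbered 0.

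A gene was kept if 3 or more libraries held 1 TPM or more (14765 genes). Libraries were scaled by an unweighted trimmed mean of log ratios (30% of ratios and 5% of levels trimmed at each end), and log2(scaled TPM + 1) was fitted with limma 3.58.1 (R 4.3.3) in 1 model of all 10 libraries, with Benjamini-Hochberg adjustment at 5%. The pseudocount of 1 understates changes of low genes. The limma fit alone was run on simulated data, without the filter and the scaling, which were therefore not tested. The members and all gene lists were chosen with earlier results of these data known. Named genes were the 6 members, genes of each list past the threshold (at most 5 per list and direction) or over 10 times higher in 1 library, and the 3 genes most like each member. Dsp, Dsg2, Pkp2, Spp1 and the mesothelial genes were added after their values were seen. A listed gene is not reported here. Alternatives covered the pseudocount, filter, scaling, weights, groups fitted, replicate block, each library left out, HpC1 and HpC2 left out together, and length-weighted gene TPM.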

Additional observations from a re-analysis of the deposited data

Results flagged for a closer look

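In each group of 4 HpC libraries the gap between the extreme library and its nearest neighbour was compared with the whole range of log2 levels. Of 48 genes examined, 15 had a gap above Dixon's critical share of the range at 95%, where chance gives about 1 in 20 for a single gene. The genes share the same libraries and their lists were chosen with earlier results of these data known. The count is therefore a description and cannot be tested against that rate. The share is given after each gene. None of the 6 simple keratins was among them. HpC2 was the high library for 14. These were the stratified keratins Krt4 (0.967), Krt5 (0.993), Krt6a (1), Krt6b (0.989), Krt13 (0.959), Krt14 (0.966), Krt15 (0.924) and Krt16 (0.970), the desmosome genes Dsc1 (0.979), Dsc3 (0.979), Dsg3 (0.989) and Pkp1 (0.979), the envoplakin gene Evpl (0.877) and Hspb1 (0.918). HpC2 was the low library for the transglutaminase gene Tgm2 (0.928).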

How the results depend on the processing

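Results for members, single genes and all genes were recomputed under 23 alternatives (22 for genes left out by a stricter filter). Counts over the partner lists were recomputed under 2 alternatives and the keratin ratios under 9. The count of members passing between HpC and pC by limma was 0, became 1 with a pseudocount of 5, with a filter of 5 TPM and with length-weighted gene TPM, 3 with array weights and 2 without HpC1 and HpC2 together, and ranged from 0 to 1 when 1 library was left out. Krt7 passed in 6 of 23 (limma adjusted p 0.00305 to 0.544, log2 difference 0.41 to 1.18), Krt19 in 2 (0.0275 to 0.949, 0.06 to 0.96), Krt20 in 2 (0.0127 to 0.242, 0.65 to 2.03) and Krt8, Krt18 and Krt23 in 0, and each member kept its direction in all 23. Against H all 6 members passed in all 23 for HpC; for pC Krt20 passed in 12 and the others in all 23. The count over all genes between HpC and pC (671) became 1797 with array weights, 378 with only the groups compared and 270 to 795 when 1 library was left out (270 without pC2, 329 without pC1, 410 without HpC3 and 442 without pC3). On TPM as deposited these differences reversed: for HpC against H Pkp4 (0.33), Mapk14 (0.027), Casp6 (0.058), Prkce (0.40) and Stub1 (0.69), and for pC against H Dst (0.52), Mapk14 (0.25), Casp6 (0.94) and Stub1 (0.94); this scaling moved the median of all genes by 0.87 (HpC) and 1.20 (pC) against H. Weighted by length, the Krt7 share of Krt7 plus Krt8 differed by 2.52 percentage points between HpC and pC, against 5.85. The cause was not tested for any of these. Deviations from the group means correlated at -0.05 to 0.08 between same-numbered libraries and at -0.18 to 0.17 between differently numbered ones. With means of 3 or 4 libraries, this cannot settle whether same-numbered libraries were handled together. With the replicate block 0, 6 and 5 members passed in HpC against pC, HpC against H and pC against H, and 573 genes passed between HpC and pC. With 3 or 4 libraries per group and depth unknown, differences of the size seen for Krt8, Krt18, Krt19 and Krt23 were within the spread between libraries, which does not show that the groups are alike.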
